A study of Homo sapiens with 4 samples.

Results

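H3K27ac, a histone acetylation found at active promoters and enhancers, was examined at 8 long noncoding RNA genes: NEAT1, MALAT1, TUG1, NORAD, GAS5, SNHG1, SNHG5 and SNHG12. The genes were taken by name as abundant nuclear RNAs and hosts of small nucleolar RNAs (snoRNAs), not by a threshold on these data. All 8 were found among the 59716 placed genes of the RefSeq table of GRCh38.p14. Each was described over its span and 50 kb on either side, and every H3K27ac peak touching that window was kept, 73 of 65118 daunorubicin peaks and 45 of 38626 untreated peaks.

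The series asks how anthracyclines act on ALDH1 expression and drug resistance in acute myeloid leukaemia. The cells were K562, an established human line from chronic myeloid leukaemia that carries the BCR-ABL1 fusion, and all groups shared that line and its medium. The daunorubicin group was 1 H3K27ac library of cells held for 18 h in 1 uM daunorubicin, an anthracycline used against leukaemia. The untreated group was 1 H3K27ac library of cells without the drug. Each condition also had 1 input library, made with no antibody. With 1 library per condition no difference below has a replicate check or a p-value.

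These RNAs are studied mainly for roles that need no translation. NEAT1 is the scaffold of paraspeckles, nuclear bodies that hold splicing and RNA-binding proteins. MALAT1 collects in nuclear speckles beside splicing factors, and its 3' end is cut off to give the small RNA mascRNA. NORAD is a mainly cytoplasmic RNA that binds Pumilio proteins and is known to be induced by DNA damage. TUG1 is found in nucleus and cytoplasm. GAS5, SNHG1, SNHG5 and SNHG12 are snoRNA host genes: their introns release snoRNAs, which guide chemical modification of ribosomal RNA, while the spliced host RNA is often short-lived. Host genes of this kind commonly begin with a run of pyrimidines, the start known from ribosomal protein genes.

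The deposited lists were called library by library, and the daunorubicin list was 1.69 times longer than the untreated one. Each peak carried 1 score, the authors' own value, with a median of 41 in the daunorubicin list and 43 in the untreated list. Scores rank peaks within their own list only, and some are given below with their percentile in that list. Where a pair of scores stands without percentiles, it shows no rise or fall between the libraries. Neither input library had a peak in any of the 8 windows (0 of 87 with daunorubicin and 0 of 92 without). As a check of the cell type, an end of 9 of 10 erythroid and megakaryocytic markers was within 1 kb of a peak with daunorubicin and 8 without. Of 12 markers of lymphoid, liver, neural and epithelial cells it was 6 and 5. The check is a weak one, as many markers of other cell types were marked too. The share over all genes is not given, and the markers HBG1, HBG2 and HBE1 share a locus. Sequencing depth is unknown, and any part that depth or enrichment played in the longer daunorubicin list was not tested.

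At the 5' ends all 8 genes were marked in both libraries, by a peak within 1 kb of the annotated start. Of 34943 start sites in the RefSeq promoter table, 44.3% had peaks of both libraries within that distance. NORAD had the untreated 5' peak of highest score, 392 (percentile 98.2 of the untreated list), and in the daunorubicin list its 5' peak scored 234 (percentile 96.7). GAS5 had the daunorubicin 5' peak of highest score, 282 (percentile 98.5), and an untreated one of 203 (percentile 85.7). NEAT1 was lowest in both lists, at 80 (percentile 74.0) with daunorubicin and 70 (percentile 64.2) without. The other 5 genes lay between, at 114 to 200 with daunorubicin and 116 to 273 without. The strongest 5' peak of every one of the 8 genes scored above the median of its list, and the libraries differed in where those peaks began, ended and broke.

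The start base itself lay inside a peak of both libraries at TUG1, NORAD, GAS5, SNHG5 and SNHG12. At NEAT1 and SNHG1 it lay inside the untreated peak and outside the daunorubicin peaks. The untreated NEAT1 peak ran unbroken over the start (chr11:65421544-65423712, 2169 bp, score 70). In its place the daunorubicin list had a peak ending 102 bp before the start (1205 bp, score 80) and a narrow one beginning 300 bp after it (444 bp, score 17). At SNHG1 the untreated peak was 2416 bp wide (chr11:62855080-62857495, score 116), and the daunorubicin list again had a pair, 1326 bp wide with score 82 ending 256 bp before the start and 445 bp wide with score 114 beginning 14 bp after it. Of 15496 start sites in the RefSeq promoter table with peaks of both libraries within 1 kb, 7.42% lay inside an untreated peak and outside daunorubicin peaks, and 4.55% the other way. SNHG1 is 1 of these sites, and NEAT1 has no entry in that table.

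**Figure D1:**
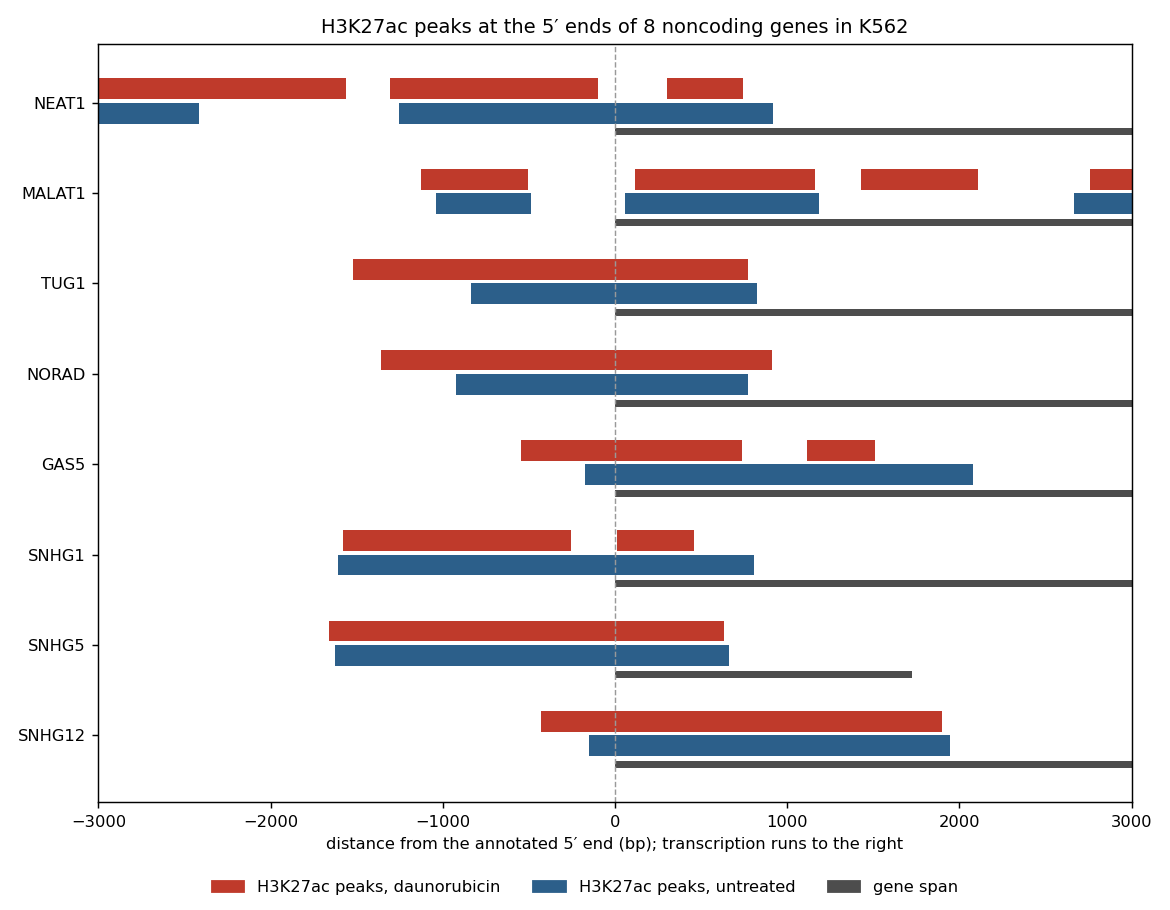
H3K27ac peaks within 3 kb of the annotated 5' end of each gene, drawn as bars by distance in bp with transcription to the right (daunorubicin in red above, untreated in blue below, gene span in grey). The daunorubicin bars are broken at or near the start of NEAT1, SNHG1 and GAS5, where the untreated bar is unbroken, and both bars are broken over the start of MALAT1.

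GAS5 showed the same break farther inside the gene as annotated. Distances run from the annotated 5' end at 173869045, the only GAS5 start examined, so a start farther in was not looked at. Its untreated 5' peak (chr1:173866967-173869218, 2252 bp) was overlapped by a pair of daunorubicin peaks, 1284 bp wide with score 282 over the annotated start and 395 bp wide with score 26, beginning 1112 bp into the gene. The gap between them held an end of ZBTB37 at 173868082, 963 bp from the GAS5 start, and at SNHG1 the gap held the end of SLC3A2, an amino acid transporter subunit gene, 224 bp from the start. In all, 3 of the 8 genes had a 5' untreated peak overlapped by 2 or more daunorubicin peaks, and none had the converse. Counted by peaks, this was 3 of the 9 untreated peaks within 1 kb of the 5' ends. Among shared untreated peaks within 1 kb of any gene end, 8.25% were overlapped by 2 or more daunorubicin peaks, and among shared daunorubicin peaks there 2.09% by 2 or more untreated ones. This count was made after the peaks had been seen. The background shares take 5' and 3' ends alike and are not matched for peak width.

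MALAT1 was the gene whose annotated start was in no peak of either library. With daunorubicin the nearest peaks ended 507 bp before and began 113 bp after it, and without the drug they ended 487 bp before and began 57 bp after it. The peak after the start was the stronger in both lists, with score 200 (percentile 94.6) with daunorubicin and 224 (percentile 88.0) without. A second MALAT1 start in the promoter table, at 65499045, also lay outside the peaks of both libraries. The daunorubicin peak of score 200 ended 149 bp before this second start, and the untreated peak of score 224 ended 126 bp before it. A peak of score 33, called only with daunorubicin, began 124 bp after it. The promoters of the genes whose start lay outside a peak, and that of GAS5, are shown from 250 bases before to 50 after the RefSeq start (GRCh38.p14, gene strand), with capitals for 5 motifs on either strand. These are the GC box (GGGCGG), the core promoter box spelled TATAAA, and its variant spelled TATATAA, which was added after the sequences were seen and can overlap the first spelling. The remaining motifs are the box spelled CCAAT and the E-box, spelled CACGTG.
MALAT1 first start, chr11:65497488-65497787 (+): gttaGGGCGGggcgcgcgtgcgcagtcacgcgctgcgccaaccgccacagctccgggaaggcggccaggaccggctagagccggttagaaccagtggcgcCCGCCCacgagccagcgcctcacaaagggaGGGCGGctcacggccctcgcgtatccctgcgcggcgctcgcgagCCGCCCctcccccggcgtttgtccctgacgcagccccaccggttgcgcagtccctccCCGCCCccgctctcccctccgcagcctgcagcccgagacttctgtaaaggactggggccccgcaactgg
MALAT1 second start, chr11:65498795-65499094 (+): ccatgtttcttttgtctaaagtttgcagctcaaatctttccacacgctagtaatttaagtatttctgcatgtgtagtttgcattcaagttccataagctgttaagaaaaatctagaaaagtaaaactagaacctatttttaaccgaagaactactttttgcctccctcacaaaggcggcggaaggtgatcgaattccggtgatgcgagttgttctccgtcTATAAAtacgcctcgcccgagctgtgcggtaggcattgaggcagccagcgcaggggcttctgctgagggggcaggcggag
SNHG1, chr11:62855836-62856135 (-): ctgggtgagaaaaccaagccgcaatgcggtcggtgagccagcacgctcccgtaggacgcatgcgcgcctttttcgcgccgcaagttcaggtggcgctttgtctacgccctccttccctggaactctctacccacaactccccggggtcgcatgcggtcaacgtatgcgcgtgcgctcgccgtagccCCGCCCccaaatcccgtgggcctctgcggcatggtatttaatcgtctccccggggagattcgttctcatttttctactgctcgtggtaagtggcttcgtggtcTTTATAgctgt
GAS5, chr1:173868996-173869295 (-): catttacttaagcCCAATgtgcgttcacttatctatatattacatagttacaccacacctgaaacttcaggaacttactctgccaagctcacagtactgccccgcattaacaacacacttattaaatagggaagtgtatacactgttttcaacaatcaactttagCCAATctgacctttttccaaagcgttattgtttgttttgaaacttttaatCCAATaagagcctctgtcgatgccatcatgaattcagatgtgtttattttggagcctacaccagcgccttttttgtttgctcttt

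The 4 sequences differ in composition. The first MALAT1 start had 73.7% G and C, 37 CpG and 5 GC boxes, and no base of it was covered by a peak of either library. The second had 46.0% G and C, a TATAAA beginning 30 bases before the start, and 102 bp covered with daunorubicin and 125 bp without. SNHG1 had 60% G and C, with 36 bp covered with daunorubicin and all 300 bp without. GAS5 had 37.7% G and C, 5 CpG and 3 CCAAT, with all 300 bp covered with daunorubicin and 223 bp without. Over the 35116 promoters of the table the median was 58.7% G and C with 14 CpG, and 45.0% held GGGCGG. The shares were 34.6% for CCAAT, 11.5% for TATAAA and 7.26% for the E-box.

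In both libraries the 300 bases around the RefSeq start were covered in full at TUG1, SNHG5, SNHG12 and NORAD. TUG1 carried 2 CCAAT, 4 GC boxes and a CACGTG 77 bases before the start. NORAD held a CACGTG 138 bases before its start and no other of the 5 motifs. The table's SNHG12 start lies 1110 bp inside the gene from the annotated 5' end at 28582983, and the SNHG12 sequence features belong to that inner start. SNHG5 and SNHG12 had a TATATAA, present in 2.57% of all promoters, at 32 and 30 bases before the start. Both also had a pyrimidine run at the start (a C at or within 5 bases of the first base, then at least 4 C or T), 5 bases long in SNHG5 and 12 in SNHG12. The first MALAT1 start met that rule with 6 bases, the other 5 entries of the 8 did not, and 21.1% of all promoters did. For each gene this holds for the listed starts only. The 110 bases around the starts of SNHG5 and SNHG12 are shown because they hold both features, in capitals, beside GGGCGG where present.
SNHG5, from 60 before to 50 after the start at 85678733 (chr6, -): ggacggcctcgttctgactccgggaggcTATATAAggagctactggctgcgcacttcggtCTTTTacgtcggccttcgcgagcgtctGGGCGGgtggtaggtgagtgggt
SNHG12, from 60 before to 50 after the start at 28581873 (chr1, -): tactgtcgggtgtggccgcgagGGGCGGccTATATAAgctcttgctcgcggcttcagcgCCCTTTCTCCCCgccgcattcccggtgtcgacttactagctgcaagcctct

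Inside the genes, peaks covered fewer bases with daunorubicin at 6 of the 8, namely NEAT1, TUG1 and the 4 snoRNA hosts, and more at MALAT1 and NORAD. GAS5 had 1130 bp of its 5145 bp span covered with daunorubicin and 2079 bp without, or 22.0% with daunorubicin and 40.4% without. SNHG1 had 445 bp with daunorubicin and 806 bp without, or 11.4% and 20.6% of 3908 bp. NEAT1 had 444 bp with daunorubicin and 915 bp without, or 1.95% and 4.02% of 22743 bp. These 3 genes were those with the broken 5' peaks. No other peaks lay in their spans, so this is not a separate observation.

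At the other 3 genes the differences inside the span were small. SNHG5 had 635 bp with daunorubicin against 659 bp without, SNHG12 1897 bp with daunorubicin against 1947 bp without and TUG1 771 bp with daunorubicin against 827 bp without. MALAT1 had 2010 bp with daunorubicin against 1484 bp without, and a 679 bp peak inside the gene was called only with daunorubicin. NORAD had 913 bp with daunorubicin against 772 bp without. Of genes with a peak inside the span, 24.4% had fewer bases covered with daunorubicin. Among the 9537 such genes in the size range of the 8 (1727 to 22743 bp) the share was 34.6% (95% Wilson interval 33.64 to 35.55). Such intervals cover counting error only, and neighbouring genes can share peaks.

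Few of the snoRNA genes themselves were under a peak. The 4 host spans hold 26 annotated snoRNA genes, 11 in GAS5, 9 in SNHG1, 4 in SNHG12 and 2 in SNHG5. Of the 26, 2 were touched by a daunorubicin peak, SNORD74 in GAS5 and SNORD25 in SNHG1. Untreated peaks touched 5, which were the same 2 with SNORD26 and SNORD27 in SNHG1 and SNORA16A in SNHG12. The touched snoRNA genes were those nearest the 5' ends of their hosts.

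Over the wider windows most of the 8 genes were marked over more bases with daunorubicin. Marked length, the number of bp covered by peaks in the span with 50 kb on either side, was longer with daunorubicin at 7 of 8 genes, all but SNHG5. Of 43785 genes of all types with a peak in their window, 88.1% were longer with daunorubicin (88.5% of 12192 lncRNA genes) and 11.9% shorter. A share of 7 in 8 is close to that background. The median difference of the 8 was 2816 bp, daunorubicin minus untreated, against 1142 bp over all genes and 1102 bp over lncRNA genes. As a ratio of daunorubicin to untreated the median of the 8 was 1.41, close to the 1.38 over all genes with an untreated peak.

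By a ratio of at least 1.5, MALAT1, TUG1, NORAD and SNHG12 were called longer and none shorter, 4 of 8 against 47.7% of all genes and 53.1% of lncRNA genes. Of the 43785 genes, 39103 had an untreated peak, as all 8 genes did. The genes without one are always called longer by this rule, and they count in the 47.7% and in the 88.1% above. Only 1.63% of all genes were called longer without the drug. SNHG12 (7456 bp with daunorubicin against 4967 bp without) lay just inside the threshold, followed by NORAD at 1.52, and NEAT1 at 1.32 was the nearest outside it. With equal numbers of highest-scoring peaks in both lists a single gene, TUG1, was called, against 25.1% of all genes in that setting, and GAS5 and SNHG1 were then shorter (3235 bp with daunorubicin against 4132 bp without, and 10949 bp with daunorubicin against 11531 bp without).

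**Figure D2:**
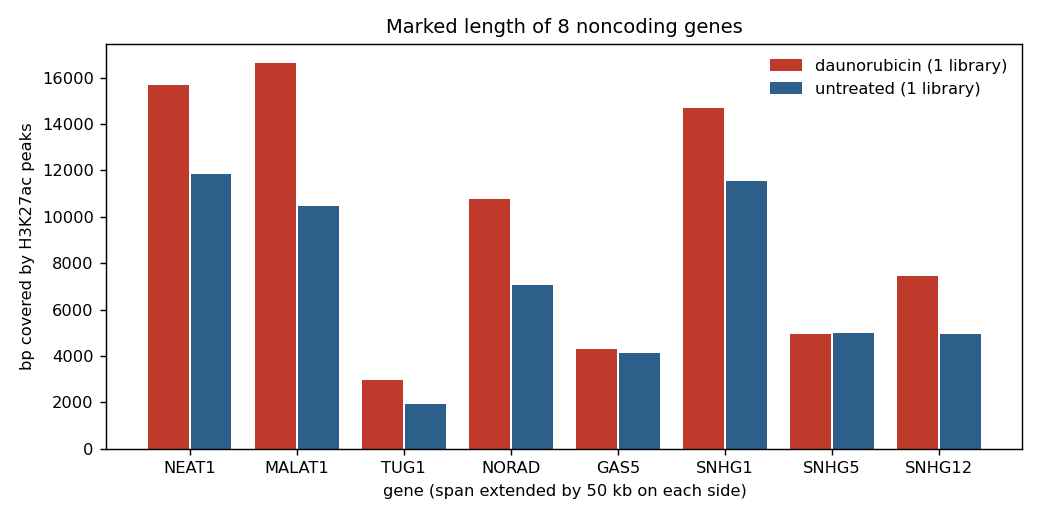
Marked length in bp of each of the 8 genes (span extended by 50 kb on each side), with the daunorubicin library in red and the untreated library in blue, 1 library each and no error bars. The red bar is taller at every gene but SNHG5, where it stands at 4934 bp and the blue bar at 4998 bp.

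**Figure D3:**
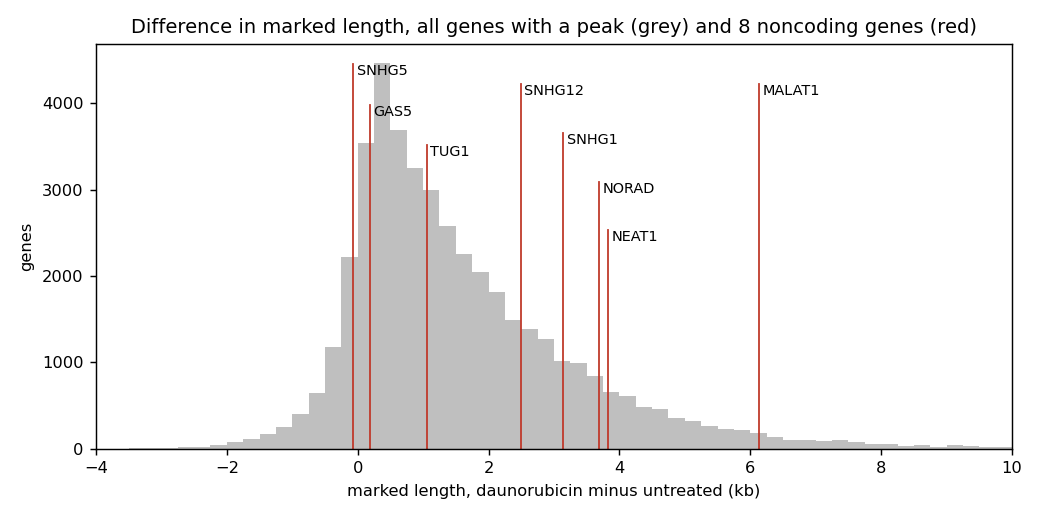
Number of genes by difference in marked length (daunorubicin minus untreated, in kb, bins of 0.25 kb) for all genes with a peak in the window, with the 8 genes as red lines whose heights carry no value. MALAT1 lies far to the right at 6138 bp and SNHG5 just below zero at -64 bp. The axis leaves out 257 genes beyond its ends.

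NEAT1 and MALAT1 lie on chromosome 11, at 65422798 to 65445540 and 65497738 to 65506516, with 52197 bp between them, so their windows overlap and hold 12 daunorubicin and 6 untreated peaks in common. MALAT1 had the largest difference of the 8, with 27 daunorubicin and 14 untreated peaks and a marked length of 16617 bp with daunorubicin against 10479 bp without (percentile 97.1 of the differences of all genes). NEAT1 had 19 daunorubicin and 11 untreated peaks and 15679 bp with daunorubicin against 11850 bp without (percentile 89.1). As ratios, 1.59 at MALAT1 and 1.32 at NEAT1 stood at percentiles 63.9 and 44.7, nearer the middle of all genes.

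The highest daunorubicin score in both windows belonged to neither promoter. It was a peak between the genes over ENEMAL, a lncRNA gene, 30621 bp below the 3' end of NEAT1 and 20213 bp above the start of MALAT1 (chr11:65476161-65477525, score 228, percentile 96.4). The untreated peak there was wider (chr11:65476193-65478335, 2143 bp, score 278, percentile 92.9) and was overlapped by this peak and by a daunorubicin peak of 485 bp with score 74. Beside it, at 65472518 to 65472951, lay the peak of score 71 that was the highest called only with daunorubicin in any of the 8 windows. Of the 12 daunorubicin peaks common to both windows, 5 had no untreated partner.

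Around NEAT1 the added length lay outside the gene. The upstream 50 kb had 7695 bp covered with daunorubicin and 6343 bp without, and the downstream 50 kb had 7540 bp with daunorubicin against 4592 bp without. Upstream, peaks at 39396 bp (score 154) and 18288 bp (score 67) from the start with daunorubicin matched untreated peaks at 39740 bp (score 122) and 18472 bp (score 60). Between them a daunorubicin peak at 35595 bp scored 39 (percentile 47.9 of its list) and its untreated partner at 35617 bp scored 134 (percentile 77.0 of its list). Nearer the start, an untreated peak of 1773 bp at 2417 bp was overlapped by a pair of daunorubicin peaks of 2042 bp and 257 bp. The wider of the pair ended closer to the start, at 1565 bp, over bases that no untreated peak covered. No untreated peak of NEAT1 was without a daunorubicin partner, and 5 daunorubicin peaks, all downstream, were without an untreated one.

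MALAT1 had 13 regions called only with daunorubicin, more than any other of the 8, and 1 called only without. Of the 13, 5 lay upstream and are those of the NEAT1 window, 1 lay in the gene and 7 lay downstream. The nearest of these downstream regions stood 489 bp past the 3' end, beside MASCRNA and TALAM1, the antisense partner of MALAT1 (395 bp, score 38), and the next at 1166 bp (score 16). The region called only without daunorubicin was 579 bp wide, 47088 bp downstream, with score 35.

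**Figure D4:**
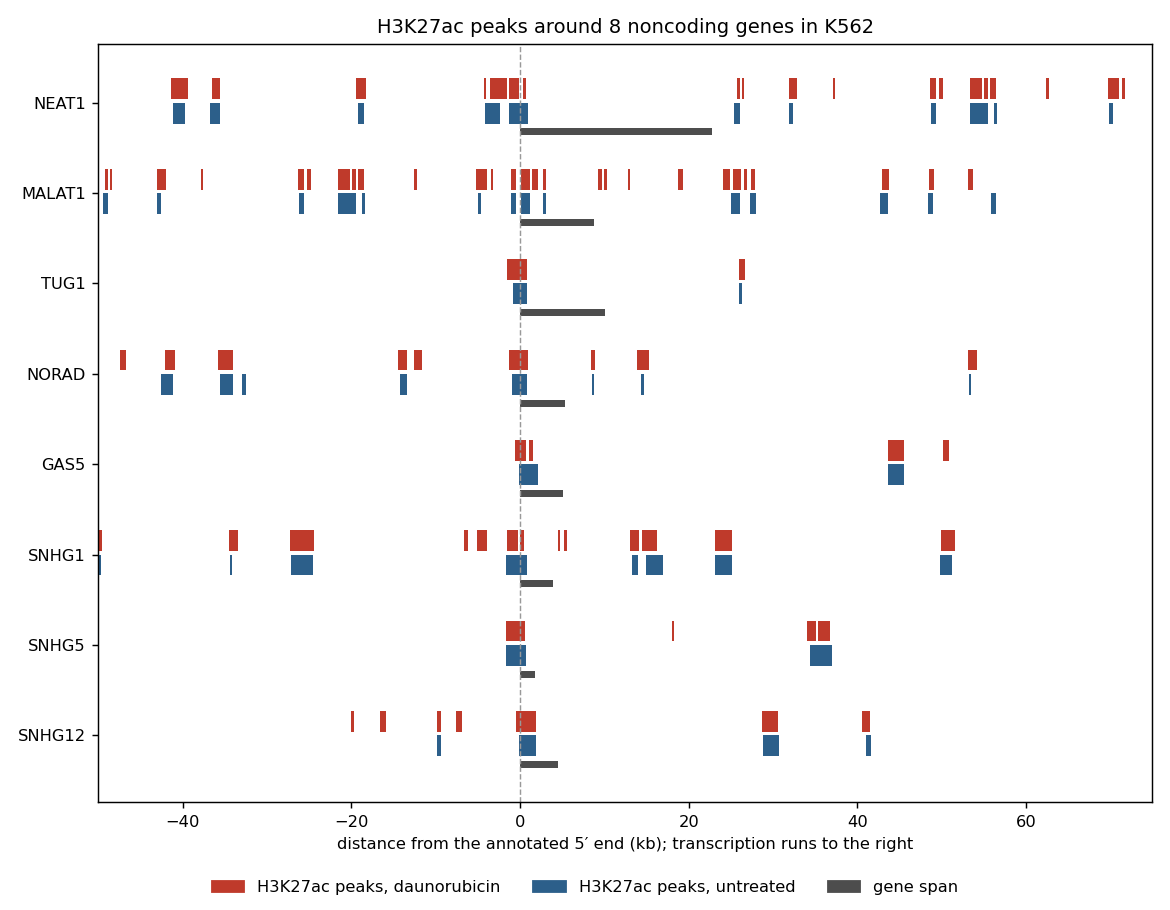
H3K27ac peaks around the 8 genes by distance in kb from the annotated 5' end, with transcription to the right (daunorubicin in red above, untreated in blue below, gene span in grey). NEAT1, MALAT1 and SNHG1 sit among many peaks, with 13 to 27 daunorubicin peaks each, whereas TUG1 has 2 in each library.

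TUG1 had the sparsest window (chromosome 22, 30969265 to 30979395; RefSeq gives it as protein-coding). Each library had 2 peaks, and both pairs overlapped. The 5' peak, which also covered the end of MORC2 491 bp away, was 2291 bp wide with daunorubicin (score 155, percentile 90.1) and 1663 bp without (score 273, percentile 92.5). It reached farther upstream with daunorubicin and ended close by inside the gene, at 30970035 with daunorubicin and 30970091 without. The other peak, 15821 bp past the 3' end, was 673 bp with daunorubicin and 249 bp without. Marked length was 2964 bp with daunorubicin against 1912 bp without, and no region was in 1 library only.

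NORAD (chromosome 20, 36045618 to 36050960) had 9 daunorubicin and 8 untreated peaks and a marked length of 10773 bp with daunorubicin against 7079 bp without. Its 5' peak was 2273 bp wide with daunorubicin and 1694 bp without. Of the 7 regions in both libraries, the one 8530 bp past the 3' end was 1424 bp wide with daunorubicin (score 31) and 399 bp without (score 12). The one at 47837 bp was 983 bp wide with daunorubicin (score 67) and 321 bp without (score 23).

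Both unshared kinds occurred at NORAD. Regions called only with daunorubicin lay 46721 bp (score 18) and 11668 bp (score 29) upstream. One of 510 bp called only without it lay 32521 bp upstream with score 71, above the untreated median of 43. It and the MALAT1 region named above were the only 2 regions of the 8 windows called without daunorubicin alone. With equal numbers of highest-scoring peaks the NORAD marked lengths were 7305 bp with daunorubicin against 7079 bp without.

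Of the 4 snoRNA hosts among the 8 genes, the difference in bp was largest at SNHG1 (chromosome 11, 62851978 to 62855885), with 13 daunorubicin and 8 untreated peaks and 14675 bp with daunorubicin against 11531 bp without. Most of its peaks lay at other genes, among them WDR74, which acts in ribosome assembly, the snRNA gene RNU2-2, STX5 and the RNA export factor gene NXF1. These peaks scored 163 to 208 with daunorubicin and 71 to 205 without. A pair of peaks at 3867 bp (1220 bp, score 23) and 6195 bp (score 21) upstream, in SLC3A2, was called only with daunorubicin, as was a pair of scores 12 and 13 at 563 bp and 1350 bp past the 3' end. The upstream 50 kb had 7312 bp covered with daunorubicin and 4704 bp without.

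SNHG12 (chromosome 1, 28578538 to 28582983) had 7 daunorubicin and 4 untreated peaks, and 7456 bp with daunorubicin against 4967 bp without. The 5' peak was 2325 bp wide with daunorubicin (score 147, percentile 89 of its list) and 2097 bp without (score 217, percentile 87.3 of its list). Most of the added length lay in the upstream 50 kb, with 2774 bp covered with daunorubicin and 584 bp without. There 3 regions were called only with daunorubicin, at 6908 bp (743 bp, score 48), 15891 bp (score 19) and 19701 bp, the last within 1 kb of an end of TAF12 (score 20). The peaks at TRNAU1AP were of nearly equal width, 1874 bp with daunorubicin (score 193) and 1876 bp without (score 172).

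GAS5 and SNHG5 had nearly equal marked lengths in the 2 libraries. GAS5 (chromosome 1, 173863901 to 173869045) had 4 daunorubicin and 2 untreated peaks and 4314 bp with daunorubicin against 4132 bp without. The downstream 50 kb had 2635 bp covered with daunorubicin and 1880 bp without, where a 684 bp peak of score 22 was called only with daunorubicin, and the upstream 50 kb had 549 bp with daunorubicin against 173 bp without. These stood beside the 949 bp fewer inside the gene.

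SNHG5 (chromosome 6, 85677007 to 85678733) had 4 daunorubicin and 2 untreated peaks and 4934 bp with daunorubicin against 4998 bp without, the only gene of the 8 marked over less length with daunorubicin. Its 5' peak was 2298 bp wide with daunorubicin (score 178, percentile 92.7) and 2286 bp without (score 211, percentile 86.7). The untreated peak of 2712 bp at SYNCRIP, an RNA-binding protein gene, was overlapped by a pair of daunorubicin peaks of 1386 bp and 1042 bp. Unlike the gaps at NEAT1 and SNHG1, which held the start base, this gap missed the SYNCRIP end at 85643870. That end lay inside a peak of both libraries. Over the 8 windows 6 of 43 shared untreated peaks were overlapped by 2 or more daunorubicin peaks. The shares were 4.79% of all 34486 shared untreated peaks and 8.25% of those near gene ends. These shares are not matched for peak width either.

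Merging the peaks of the 8 windows gave 43 regions with peaks of both libraries, 24 found with daunorubicin alone and 2 found without it alone. At least 1 region called only with daunorubicin was found at 7 of the 8 genes, all but TUG1, against 81.8% of all genes. For regions called only without it the counts were 2 of 8 and 28.1%. Of the daunorubicin peaks in the windows, 32.9% (Wilson interval 23.2 to 44.3) had no untreated partner, against 46.3% of the whole list. Of the untreated peaks, 4.44% (1.23 to 14.8) had no daunorubicin partner, against 10.7% of the list. Both intervals take the peaks as independent draws. The peaks cluster in 8 windows, with those of NEAT1 and MALAT1 overlapping, and come from 1 library per condition. The intervals are therefore no test against the whole list.

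These 24 were small beside the shared peaks of the same windows. Their scores ran from 12 to 71 with a median of 24, and 4 of the 24 exceeded the median of the daunorubicin list. Their median width was 428 bp, whereas the 49 shared daunorubicin peaks had medians of 1046 bp in width and 82 in score. The same values were not taken for all 30150 daunorubicin peaks without an untreated partner. Whether the 24 differ from those was not tested. With equal numbers of highest-scoring peaks there were 9 regions in each unshared class.

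The same measures were taken for other noncoding genes and for genes of proteins that work with these RNAs. Of 21 other snoRNA hosts, marked length was longer with daunorubicin at 14 and shorter at 7 (median 875 bp, daunorubicin minus untreated). The 3 with the largest differences were SNHG3 (13509 bp with daunorubicin against 9823 bp without), SNHG25 (6702 bp with daunorubicin against 3210 bp without) and SNHG29 (10697 bp with daunorubicin against 7236 bp without). Inside the span fewer bases were covered with daunorubicin at 13 of the 21 and more at 5, beside the background of 34.6% for genes in the size range of the 8. The 21 were not limited to that range, so the background is not matched to their sizes. Nor did it ask for a marked gene end, which 20 of the 21 had in both libraries. By a ratio of 1.5, 3 of the 21 were called longer and 1 shorter, against 47.7% and 1.63% of all genes. The shorter one, SNHG19, named after its value was seen, had 3484 bp with daunorubicin against 5687 bp without. Of the 3 with the largest differences, SNHG3 had 3270 bp of its span covered with daunorubicin and 4163 bp without, SNHG29 had 2033 bp with daunorubicin against 1740 bp without, and SNHG25 had 340 bp in both.

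Other long noncoding genes were longer at 15 of 15, with a median of 1521 bp, and covered over fewer bases inside the span at 1 of 14 with a peak there. PVT1, beside MYC, had 36688 bp with daunorubicin against 21092 bp without, LINC-PINT 22594 bp with daunorubicin against 11033 bp without and OIP5-AS1 9560 bp with daunorubicin against 6426 bp without. Of 14 paraspeckle protein genes, which work with NEAT1, 11 were longer and 3 shorter (median 1317 bp). The largest differences were at NUDT21 (9411 bp with daunorubicin against 5536 bp without), SFPQ, a core paraspeckle protein gene (5035 bp with daunorubicin against 1306 bp without), and SMARCA4 (10121 bp with daunorubicin against 7215 bp without).

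The 8 snoRNP protein genes, whose products bind snoRNAs, were all longer (median 1069 bp), led by DKC1, the pseudouridine synthase gene (14798 bp with daunorubicin against 11269 bp without), NOP58 (8616 bp with daunorubicin against 5602 bp without) and FBL, the methyltransferase gene (4311 bp with daunorubicin against 2654 bp without). All 4 genes of NORAD-binding proteins were longer (median 3786 bp), with KHDRBS1 at 13843 bp with daunorubicin against 7364 bp without and PUM2 at 6776 bp with daunorubicin against 3323 bp without. All 8 genes of splicing factors that MALAT1 gathers with in speckles were longer (median 1640 bp), among them SRSF3 (9994 bp with daunorubicin against 7092 bp without), SRSF7 (5533 bp with daunorubicin against 3070 bp without) and SRRM2 (9541 bp with daunorubicin against 7411 bp without). The 8 genes of RNA decay factors, whose pathway degrades many spliced host RNAs, were also longer (median 2834 bp), with SMG1 at 13114 bp with daunorubicin against 6883 bp without and SMG6 at 18188 bp with daunorubicin against 12361 bp without. Each of these shares stands beside the 88.1% of all genes. By the ratio of 1.5, 4 of the 15 other long noncoding genes and 5 of the 14 paraspeckle protein genes were called longer. So were 2 of 8 snoRNP protein genes, 2 of 4 NORAD-binding protein genes, 3 of 8 splicing factor genes and 3 of 8 decay factor genes. No gene of these lists was called shorter, and 47.7% of all genes were called longer.

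The lncRNA gene elsewhere in the genome with the pair of marked lengths nearest to that of each gene was found by the distance of log2(bp + 100) over the 2 libraries. For NEAT1 it was LINC02639 (15612 bp with daunorubicin against 11987 bp without), for MALAT1 LOC105375523 (17210 bp with daunorubicin against 10474 bp without) and for TUG1 PSMD6-AS1 (2983 bp with daunorubicin against 1923 bp without). LOC124903909 (10743 bp with daunorubicin against 7052 bp without) was nearest to NORAD. For the hosts the nearest were ZNF460-AS1 to GAS5 (4331 bp with daunorubicin against 4144 bp without), LINC01623 to SNHG1 (14557 bp with daunorubicin against 11607 bp without), TBC1D22A-DT to SNHG5 (4915 bp with daunorubicin against 5051 bp without) and LOC105370041 to SNHG12 (7409 bp with daunorubicin against 4974 bp without). With 2 libraries such likeness rests on 2 values a gene.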

How the data were processed

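The 4 ChIP-seq libraries were grouped by their labels for antibody and treatment. MACS2 2.1.1, Bowtie2 2.3.4.3 and deepTools 3.2.1 are named, per the submitters' processing notes, beside builds hg19 and hg38. Tool parameters, the peak threshold and any use of the inputs were not given in the sources used here. Each library has its own peak list, in which the authors gave every peak 1 score, by a formula that was not given either. The lists carry hg38 sequence names, and coordinates are counted from 1.

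Gene places came from RefSeq (GRCh38.p14), and strands and promoter sequences from its promoter table, which held 7 of the 8 genes. The direction of NEAT1 is from general knowledge. An overlap of 1 bp or more made peaks shared, and regions were merged overlapping peaks. Percentiles of scores count ties as midway. Python 3.11.15, numpy 2.4.6, pandas 2.3.3 and scipy 1.17.1 were used, and 6 overlap counts on simulated peaks equalled those of bedtools 2.31.1. The members, lists and tests were chosen with earlier results of these data known. Named genes were the 8 genes, genes with an end within 1 kb of their peaks, the 3 largest differences of each list and the nearest pair of marked lengths more than 1 Mb away, and a few of them are not reported here. The counts inside gene spans, at start bases and of broken peaks were added after seeing the data. With 1 library per condition no test was run across genes.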

Additional observations from a re-analysis of the deposited data

How the results depend on the processing

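No paired analysis was possible because each condition had 1 library. With daunorubicin the marked length was the longer at 5 of the 8 genes both with scores of at least 43 and with equal numbers of peaks (38626 per list), and at 7 without peaks on input peaks, in windows of 10 kb and in windows of 100 kb. Over all genes 80.1% and 67.5% were longer in the first 2 settings. GAS5 was shorter with daunorubicin in 3 settings (-897 bp with both score settings, -573 bp in windows of 10 kb) and SNHG1 in 2 (-63 bp and -582 bp), while SNHG5 was 12 bp longer in windows of 10 kb. In place of the 4 genes called longer by 1.5 times, 1 was called with the stricter score (NORAD, 41.3% of all genes), 1 with equal numbers (TUG1, 25.1%), 3 in windows of 10 kb (MALAT1, NORAD and SNHG1, 43.2%), 2 in windows of 100 kb (NORAD and NEAT1, 49.3%) and 0 at a ratio of 2 (28.2%). The 24 regions called only with daunorubicin became 9 in both score settings, 12 and 39 in windows of 10 kb and 100 kb, and 38 with a reciprocal overlap of 50%. The 2 called only without it became 4, 9, 0, 4 and 10 in those settings. Every 5' end of the 8 genes was marked in each library in all 4 alternatives that recomputed it. None of these could have come out otherwise. The lowest of the strongest 5' peaks, at NEAT1, scored 80 with daunorubicin and 70 without. The score limits were 43 and, for the shortened daunorubicin list, 33. Neither input library had a peak in the 8 windows, so leaving out peaks on input peaks could change nothing there. A limit of 2.5 kb keeps every peak within 1 kb. The gene span was covered over fewer bp with daunorubicin at 6 to 7 of the 8 genes and 13 to 15 of the 21 other hosts in 3 alternatives chosen after seeing the data, against 34.6% to 45.5% of genes in the size range of the 8. The 21 were not limited to that size range. The cause of these moves was not tested beyond the fewer peaks or bases that each setting keeps. Depth is unknown, so a peak missing from 1 list may lie below its threshold.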
